A study of Mus musculus with 20 samples.

Results

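The effect of pembrolizumab given alone was read from 10 RNA-seq libraries of sorted CD8+ T cells from mouse tumours, 5 from control mice (Control 1 to 5) and 5 from mice given pembrolizumab (Pembrolizumab 1 to 5). All genes that reached at least 1 FPKM (fragment counts scaled by transcript length and library size) in 5 or more of the study's 20 libraries were compared, which gave 11794 of 45777 symbols in the expression table. All mice were C57BL/6 animals humanised for the receptor PD-1, its ligand PD-L1 and the receptor 4-1BB (hPD-1/hPD-L1/h4-1BB), by an insertion that the sources used here do not describe, and all carried MC38 tumours, from a mouse colon carcinoma line, with forced expression of human PD-L1. Treatment began at a mean tumour volume of 150 to 200 mm3 with random grouping, and the cells were sorted at day 4. What the control mice received, the doses and the age of the mice are not given in the sources used here. The other 10 libraries came from mice given ABL503, a bispecific antibody to PD-L1 and 4-1BB, or ABL503 with pembrolizumab. All 20 entered the model to share 1 estimate of the spread, and the ABL503 libraries are also set directly against pembrolizumab.

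PD-1 is an inhibitory receptor that T cells raise after activation and keep at high levels under lasting antigen exposure, as in tumours. Bound by PD-L1 on tumour or myeloid cells, it recruits phosphatases that dampen signalling from the T-cell receptor and CD28. Pembrolizumab is an antibody to human PD-1 that blocks this binding. In tumours, stem-like CD8+ T cells that express the transcription factor TCF-1 are known to divide and give rise to cells with cytotoxic granules when PD-1 is blocked.

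Values joined by "to" run from Control to pembrolizumab as mean ± SD over 5 libraries, and values given by library are in the order 1 to 5. Markers of the sorted cell type were present in every library. Cd8a stood at 224 to 353 FPKM and Cd3e at 186 to 325 FPKM over the 10 libraries, while Cd4 averaged 0.398 FPKM in Control and 0.166 FPKM after pembrolizumab. Between 10709 and 11313 genes reached 1 FPKM, and values summed to 583583 to 654333 per library. Read totals are unknown, so precision rests on the number of libraries. Whether each library is 1 mouse is not stated in the labels. The p-values therefore measure the spread between these libraries, which may be technical. Libraries were also placed by principal component analysis of the 500 genes of greatest variance. On the leading axis, with 22.6% of the variance, Control libraries lay between -19.38 and -5.67 and pembrolizumab libraries between 4.96 and 14.35, with Control 1 farthest out. The transcript of the drug's target, read through the mouse symbol Pdcd1, showed no detectable difference (47.3 ± 23.8 to 48.2 ± 10.9 FPKM, log2 change 0.12, adjusted p = 0.847), nor did Cd274, which encodes PD-L1 (25.3 ± 5.74 to 20.5 ± 3.23 FPKM, log2 change -0.27, adjusted p = 0.403). How much of the humanised genes these symbols cover is not known.

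After pembrolizumab, genes for cytotoxic proteins, NK-type receptors, glycolytic enzymes and chaperones were among those that rose, and genes of stem-like and memory T cells, NF-kB feedback and MHC class II were among those that fell. Of the 11794 genes tested, 655 (5.55%) passed the limma test at an adjusted p under 0.05, with 327 (2.77%) higher and 328 (2.78%) lower after pembrolizumab. The test ran on log2(FPKM + 1), so a log2 change understates the change of genes near or under 1 FPKM. The rises were the larger changes. The median log2 change was 0.67 among genes that rose and -0.54 among genes that fell, against -0.03 over all genes tested, and 80 genes rose but 23 fell by at least 2-fold on this scale. The 80 include 14 similar genes of the SPEER block, given under other observations, which may share reads and not be separate observations. In 487 of the 655 the 5 values of 1 group all lay beyond those of the other. Over all genes tested, 722 (6.12%) showed such separation. The count is sensitive to single libraries: it was 383 without Pembrolizumab 1, 416 without Control 1 and 432 without Control 4, when 60.0% of calls were higher against 49.9% with all libraries. It was 395 when only the Control and pembrolizumab libraries were fitted and 321 without the filter on low values.

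**Figure D1:**
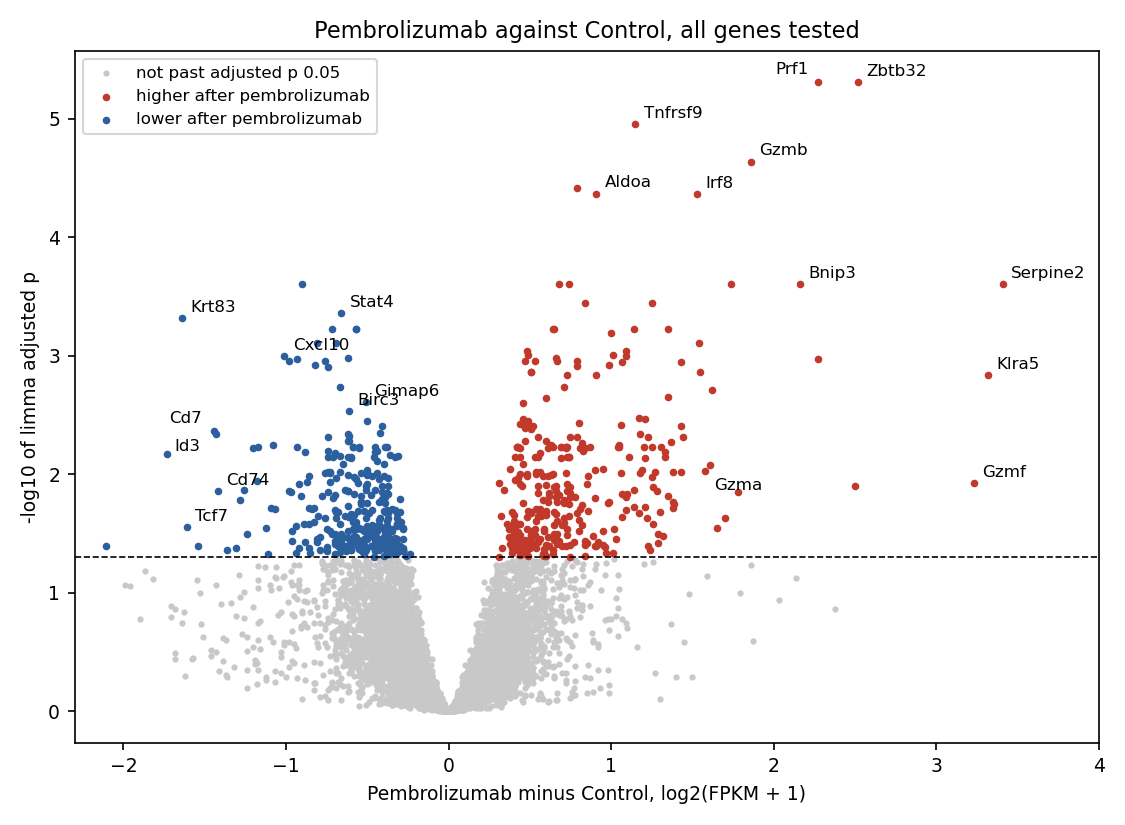
Each point is 1 of the 11794 genes tested, by its log2(FPKM + 1) change after pembrolizumab (x axis) and -log10 of its limma adjusted p (y axis), with the dashed line at an adjusted p of 0.05. The 327 higher genes reach farther from 0 than the 328 lower genes, and Prf1, Zbtb32 and Tnfrsf9 stand highest.

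**Figure D2:**
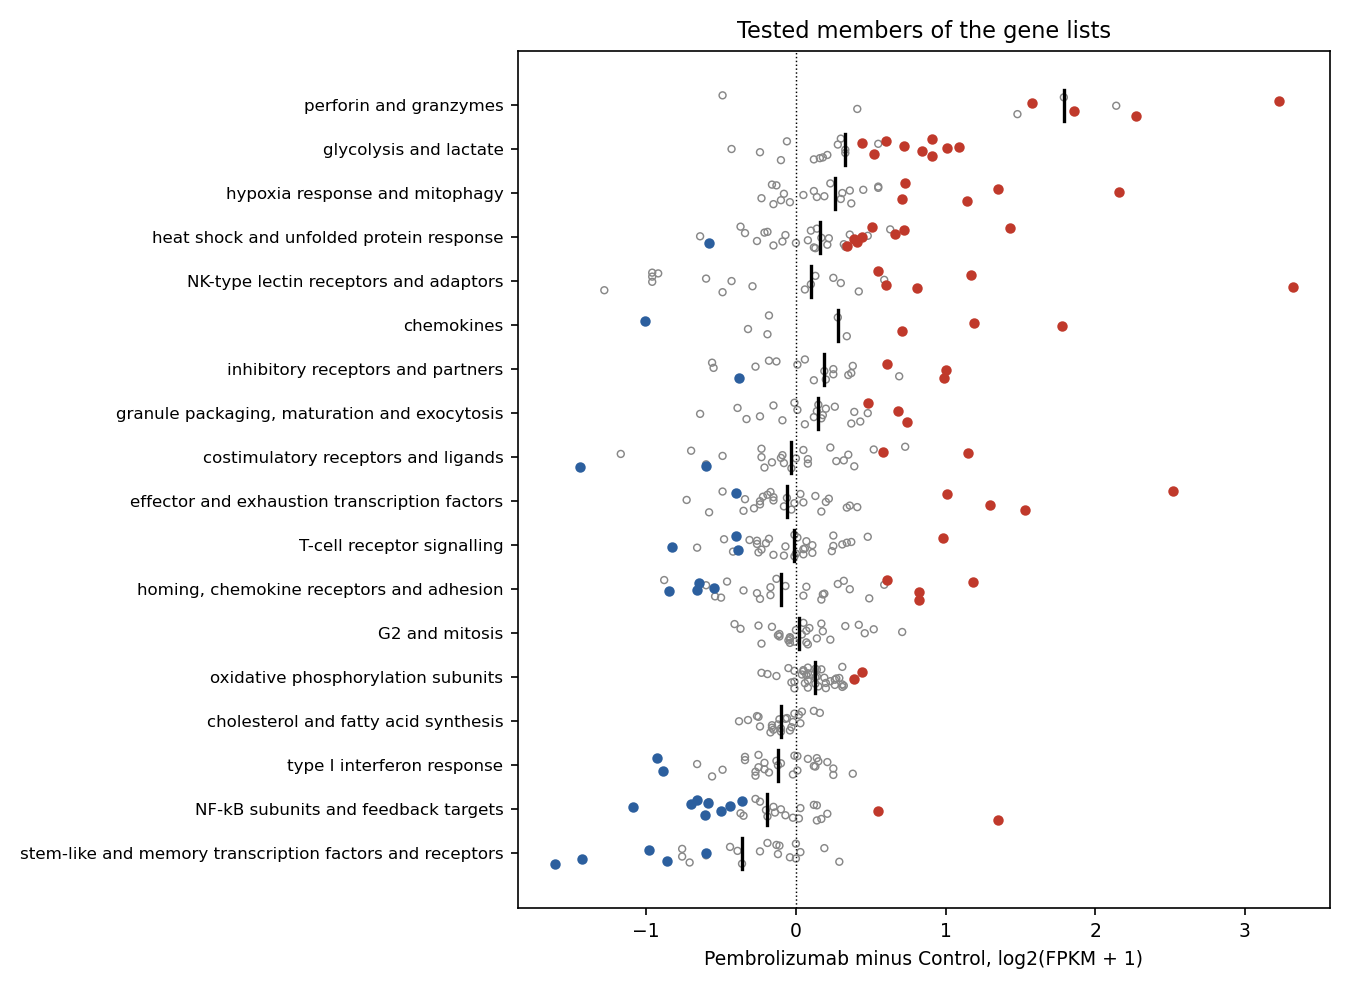
Tested members of 18 of the 33 functional gene lists, 1 row per list, by log2(FPKM + 1) change after pembrolizumab (x axis). Red points rose, blue points fell, open points did not pass the test and black bars mark list medians, with perforin and granzymes at 1.79 and stem-like and memory genes at -0.36.

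Perforin and 3 granzymes rose. Perforin (Prf1, chr10:61297751-61304684 in GRCm38) forms the pores through which granzymes, the serine proteases of cytotoxic granules, enter a target cell. Prf1 read 3.83, 3.97, 7.59, 8.83 and 7.27 FPKM in Control 1 to 5 and 30.3, 28.9, 32.5, 32.98 and 40.2 FPKM in Pembrolizumab 1 to 5. Every pembrolizumab library was above every Control library (log2 change 2.27, SE 0.21, adjusted p = 4.93e-06). Granzyme B (Gzmb, chr14:56258836-56262334), the main caspase-cleaving granzyme, read 385, 569, 670.2, 774 and 767 FPKM in Control and 2029.7, 2333, 2722, 1970.4 and 2177 FPKM after pembrolizumab. The lowest treated library was well above the highest Control library (log2 change 1.86, SE 0.2, adjusted p = 2.3e-05). Granzyme A (Gzma, chr13:113093824-113100981), a tryptase, read 203, 199, 381, 234 and 307 FPKM against 911, 1134, 819, 651 and 487 FPKM, again without overlap (log2 change 1.58, SE 0.34, adjusted p = 0.00945). Granzyme F (Gzmf, chr14:56205263-56211407) read 6.13, 7.21, 15.3, 0.583 and 2.97 FPKM against 92.2, 55.6, 11.2, 89.9 and 75.1 FPKM (log2 change 3.23, SE 0.72, adjusted p = 0.0119). Pembrolizumab 3 was far below the other treated libraries, at a level within the Control range, and Control 4 was the lowest of all.

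The other granzymes did not pass the test. Granzyme D was listed at 0 in all 5 Control libraries and at 3.11, 1.76, 5.85, 0.799 and 10.7 FPKM after pembrolizumab (adjusted p = 0.0753). Granzyme C varied widely in both groups, with 6.48, 167, 29.3, 17.1 and 20.3 FPKM in Control and 85.4, 64.2, 78.5, 106 and 151 FPKM after treatment (log2 change 1.79, SE 0.63, adjusted p = 0.0995). Granzyme E read 1.18, 0, 0, 0 and 0.0485 FPKM against 1.18, 0.737, 2.31, 3.19 and 6.29 FPKM (adjusted p = 0.103). Granzyme K, a marker of an earlier effector state, gave 165 ± 74.9 to 207 ± 51.4 FPKM (log2 change 0.41, adjusted p = 0.456), and granzyme M 21.2 ± 3.23 to 14.8 ± 2.12 FPKM (log2 change -0.49, adjusted p = 0.438). Gzmg and Gzmn were too low to be tested. Of the 11 listed genes 9 were tested and 4 rose, with a median log2 change of 1.79, or 1.69 without Gzmd, whose Control values are all 0. The share called was 44.4%, against 5.55% over all genes tested. The summed FPKM of the 11 genes ran from 734 to 1394 FPKM in Control and 3079 to 3975 FPKM after pembrolizumab. Granzymes B to G and N lie side by side at chr14:56117619-56262334 and resemble each other in sequence, so reads of Gzmc to Gzmg may be shared between them. At least 1 of the other settings tried also ended the call of Gzmf (adjusted p = 0.0522).

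The upstream sequences of the 4 genes that rose are shown because each passed the test and all 4 hold a short motif. RefSeq (GRCm38.p6) gives the bases just before each gene, printed 5′ to 3′ on the gene's own strand, for Prf1 (chr10:61297586-61297750, plus strand), Gzmb (chr14:56262335-56262584, minus strand), Gzma (chr13:113100982-113101231, minus strand) and Gzmf (chr14:56211408-56211657, minus strand). Capitals mark TGTGGT, a core motif of RUNX transcription factors, or its reverse complement ACCACA.
Prf1: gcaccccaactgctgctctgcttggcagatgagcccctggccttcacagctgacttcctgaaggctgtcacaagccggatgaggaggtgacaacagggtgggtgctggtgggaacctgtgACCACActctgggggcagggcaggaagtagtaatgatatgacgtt
Gzmb: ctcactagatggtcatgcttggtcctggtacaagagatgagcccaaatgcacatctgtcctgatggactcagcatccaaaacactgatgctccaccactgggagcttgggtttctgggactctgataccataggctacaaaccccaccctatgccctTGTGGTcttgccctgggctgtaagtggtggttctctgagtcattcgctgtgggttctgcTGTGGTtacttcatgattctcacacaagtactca
Gzma: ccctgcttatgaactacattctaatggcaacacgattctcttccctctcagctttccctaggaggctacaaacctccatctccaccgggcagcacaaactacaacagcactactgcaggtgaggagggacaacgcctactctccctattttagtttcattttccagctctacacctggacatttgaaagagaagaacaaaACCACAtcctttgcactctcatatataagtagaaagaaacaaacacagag
Gzmf: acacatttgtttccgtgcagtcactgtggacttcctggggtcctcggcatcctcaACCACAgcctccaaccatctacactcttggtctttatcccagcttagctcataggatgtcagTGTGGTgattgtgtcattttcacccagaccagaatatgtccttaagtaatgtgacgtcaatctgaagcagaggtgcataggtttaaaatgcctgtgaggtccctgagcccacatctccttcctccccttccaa

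Within 250 bases before the start, TGTGGT was found on either strand in 9 of the 11 perforin and granzyme genes, the exceptions being Gzmk and Gzmn, and in 15.9% of all 27025 genes with such a window. The 9 include genes that did not pass the test, and the granzymes are copies of an ancestral gene, so their windows are not independent. This motif and the motif for hypoxia described with the glycolytic genes were kept from 7 looked at, after their matches were seen.

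**Figure D3:**
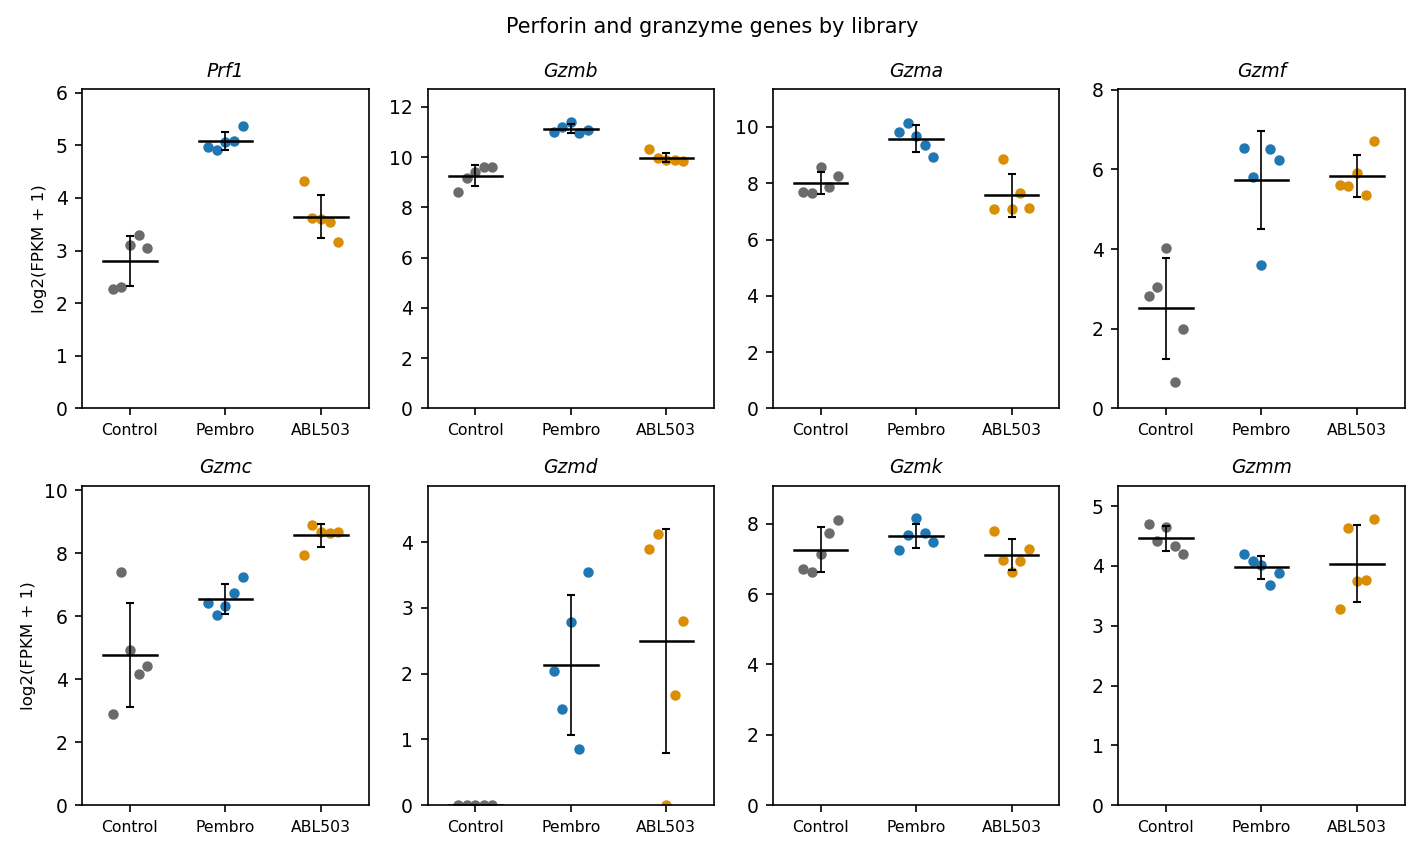
Log2(FPKM + 1) of perforin and 7 granzyme genes (y axis, from 0) in the 5 libraries each of Control, pembrolizumab and ABL503 (x axis), with the mean as a bar and the SD as a whisker. Prf1, Gzmb and Gzma separate fully between Control and pembrolizumab, whereas Gzmf, Gzmc, Gzmk and Gzmm overlap.

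Genes for the packaging and release of granules gave 3 rises. Of 23 tested, 3 rose, 0 fell and 20 did not pass the test (median log2 change 0.15, 13.0% called against 5.55% of all genes). Nkg7, a granule membrane protein, went from 4722 ± 1309 to 7321 ± 655 FPKM (log2 change 0.68, adjusted p = 0.0149). Cst7, cystatin F, which restrains granzyme-processing cathepsins, rose from 275 ± 61.4 to 451 ± 39.1 FPKM (log2 change 0.74, adjusted p = 0.0072), and Lamp2, a lysosomal membrane protein, from 14.9 ± 2.02 to 21.4 ± 4.42 FPKM (log2 change 0.48, adjusted p = 0.037). Among 10 tested serpins, which block serine proteases, 2 rose, 0 fell and 8 did not pass the test (median log2 change 0.16). Serpine2, protease nexin-1, showed the largest log2 rise among the named genes. Serpine2 read 1.401, 6.42, 0.7105, 0.434 and 1.52 FPKM in Control and 16.04, 14.97, 35.5, 24.03 and 59.9 FPKM after pembrolizumab, with every treated library above every Control library and Control 2 the highest of its group (log2 change 3.41, SE 0.45, adjusted p = 0.000248). Serpinb6b rose from 94.3 ± 9.53 to 159 ± 37.8 FPKM (log2 change 0.73, adjusted p = 0.00709). Refits that dropped a single library lost Lamp2 (in 7 of 10 refits, the highest adjusted p, 0.106, without Pembrolizumab 1). A change of filter, scaling, prior, covariate or groups in the fit ended the call of Nkg7 and Lamp2 (adjusted p up to 0.086).

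Interferon gamma was the only called gene among 16 tested cytokines and death ligands, a share of 6.25% against 5.55% over all genes tested. Ifng read 437, 707, 552, 643 and 835 FPKM in Control and 1092, 691, 960.0, 1119 and 951 FPKM after pembrolizumab, with partial overlap between the groups (log2 change 0.61, SE 0.17, adjusted p = 0.0339). Tnf (52.3 ± 6.02 to 57.9 ± 14.2 FPKM, log2 change 0.12, adjusted p = 0.799) and Fasl, the ligand of the death receptor Fas (131 ± 35.3 to 118 ± 10.8 FPKM, log2 change -0.11, adjusted p = 0.755), showed no detectable difference. Of 9 chemokine genes, 3 rose, 1 fell and 5 did not pass the test (median log2 change 0.28, 44.4% called). The inflammatory chemokines Ccl3 and Ccl4 rose. Ccl3 read 154, 570.5, 209.9, 199.8 and 259.8 FPKM against 666, 474, 501, 687 and 553 FPKM, with Control 2 alone reaching the treated range (log2 change 1.19, SE 0.25, adjusted p = 0.00927). Ccl4 went from 649.7 ± 132 to 1071 ± 286 FPKM without overlap (log2 change 0.71, adjusted p = 0.0232). Ccl9, at a lower level, read 1.37, 2.38, 1.26, 0.9301 and 1.21 FPKM against 7.85, 17.1, 6.002, 3.1 and 7.06 FPKM without overlap (log2 change 1.78, SE 0.41, adjusted p = 0.014). Cxcl10, an interferon-induced ligand of CXCR3, fell. It read 122, 124, 107, 127 and 98.5 FPKM in Control and 71.8, 54.5, 41.4, 59.5 and 61.6 FPKM after pembrolizumab, so each treated library was below each Control library (log2 change -1.01, SE 0.16, adjusted p = 0.00101). Calls missing from refits with 9 libraries were those of Ifng (in 7 of 10 refits, the highest adjusted p, 0.0952, without Control 1) and Ccl4 (in 2 of 10 refits, the highest adjusted p, 0.0688, without Control 1). Changed settings other than the libraries ended the call of Ifng, Ccl4 and Ccl9 (adjusted p up to 0.103).

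TIM-3, LAG-3 and galectin-3 transcripts rose. Of 20 tested genes for inhibitory receptors and their partners, 3 rose, 1 fell and 16 did not pass the test (median log2 change 0.19). Havcr2, which encodes TIM-3, read 26.9, 42.9, 46.6, 40.7 and 55.9 FPKM in Control and 84.1, 86.2, 92.3, 79.7 and 77.9 FPKM after pembrolizumab, and the groups did not overlap (log2 change 1.0, SE 0.15, adjusted p = 0.000648). Lag3 was low, with 0.964, 1.14, 0.893, 1.06 and 1.19 FPKM against 3.49, 2.298, 4.81, 2.99 and 2.23 FPKM and no overlap (log2 change 0.99, SE 0.24, adjusted p = 0.0173). Lgals3, galectin-3, rose from 487 ± 93.9 to 735 ± 72.3 FPKM (log2 change 0.61, adjusted p = 0.00604), while Lgals9, galectin-9 and a ligand of TIM-3, fell from 108 ± 12.6 to 83.4 ± 9.58 FPKM (log2 change -0.38, adjusted p = 0.025). Among 27 costimulatory genes, 2 rose, 2 fell and 23 did not pass the test (median log2 change -0.03, 14.8% called). Tnfrsf9 encodes 4-1BB, a receptor that T cells raise on activation. The mice are humanised for 4-1BB, and how much of that gene the mouse symbol covers is not known, here and against ABL503. It read 131, 101, 97.4, 103 and 104 FPKM in Control and 293, 246, 237, 184 and 243 FPKM after pembrolizumab, with a wide gap between the groups (log2 change 1.15, SE 0.12, adjusted p = 1.11e-05). Control 1 was the highest of its group. Slamf7, a SLAM family receptor of effector cells, rose from 34.2 ± 6.63 to 51.6 ± 10.9 FPKM (log2 change 0.58, adjusted p = 0.0468). Slamf6, the SLAM family marker of stem-like cells, fell from 35.2 ± 5.58 to 22.8 ± 3.83 FPKM without overlap (log2 change -0.6, adjusted p = 0.0217). Cd7, an immunoglobulin-type receptor of T cells, fell strongly. It read 204, 219, 159.6, 201 and 152 FPKM against 59.8, 78.5, 69.3, 57.6 and 76.1 FPKM, with no overlap (log2 change -1.44, SE 0.27, adjusted p = 0.00434). With a single library set aside, the threshold was missed by Lag3 (in 1 of 10 refits, the highest adjusted p, 0.0511, without Pembrolizumab 3), Lgals9 (in 4 of 10 refits, the highest adjusted p, 0.0701, without Pembrolizumab 1), Slamf7 (in 8 of 10 refits, the highest adjusted p, 0.134, without Pembrolizumab 1) and Slamf6 (in 3 of 10 refits, the highest adjusted p, 0.0617, without Control 4). Among fits with another filter, scaling, prior or set of groups, at least 1 ended the call of Lag3, Lgals9, Slamf7 and Slamf6 (adjusted p up to 0.128).

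Receptors first described on natural killer (NK) cells were among the genes that rose. Of 21 tested lectin receptors and adaptors, 5 rose, 0 fell and 16 did not pass the test (median log2 change 0.1, 23.8% called against 5.55% of all genes). The 5 all lie in 1 stretch, chr6:129559365-129913237, in which 9 of 13 listed symbols were tested. Its ends were set by the outermost called genes after their values were seen. The other 4 tested genes in it did not pass, namely Klrk1 (log2 change 0.42, adjusted p = 0.172), Klrc3 (log2 change 0.59, adjusted p = 0.117), Klri2 (log2 change 0.3, adjusted p = 0.64) and Klra17 (log2 change -0.93, adjusted p = 0.0863). Klra5, a Ly49 receptor, read 7.68, 2.396, 0.587, 2.92 and 0 FPKM in Control and 44.8, 59.9, 15.7, 41.3 and 8.31 FPKM after pembrolizumab (log2 change 3.32, SE 0.55, adjusted p = 0.00146). The groups did not overlap, and Ly49 genes resemble each other closely enough that reads may be shared. Klrd1, which encodes CD94, went from 206 ± 43.8 to 356 ± 36.5 FPKM (log2 change 0.81, adjusted p = 0.006). Its partners Klrc1, the inhibitory NKG2A, and Klrc2, the activating NKG2C, went from 300.1 ± 26.01 to 458 ± 62.7 FPKM (log2 change 0.6, adjusted p = 0.0124) and from 29.3 ± 3.48 to 43.4 ± 3.71 FPKM (log2 change 0.55, adjusted p = 0.0143). Klre1 rose from 23.8 ± 5.71 to 54.5 ± 10.8 FPKM (log2 change 1.17, adjusted p = 0.00335). None of these 5 overlapped between groups. The count of 5 held without Control 1 and without Pembrolizumab 1. A list of 9 NK cell markers, which holds Klre1 and the granule gene Nkg7, summed to 2952 to 6545 FPKM in Control and 6741 to 8435 FPKM after pembrolizumab, without overlap, and Nkg7 alone ran from 2763 to 6449.8 FPKM and from 6598 to 8340.0 FPKM. Of the NK-defining genes on it, named after their values were seen, Ncr1 stood at 0 to 0.578 FPKM and Klrb1c at 0.178 to 1.98 FPKM over the 10 libraries. These 2 do not stand for the whole list. Its 5 tested members had log2 changes of -0.96 to 1.17 (median 0.03), and 2 rose, 0 fell and 3 did not pass the test (40.0% called). The part of NK cells in these rises was not tested.

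Zbtb32 and Irf8 led the transcription factors that rose. Of 31 tested factors of effector and exhausted cells, 4 rose, 1 fell and 26 did not pass the test (median log2 change -0.06). The share called was 16.1%, against 5.55% over all genes tested. Zbtb32, an activation-induced zinc finger repressor, read 6.303, 11.6, 8.28, 10.6 and 6.23 FPKM in Control and 72.5, 57.9, 49.4, 39.1 and 50.5 FPKM after pembrolizumab, several-fold apart with no overlap (log2 change 2.52, SE 0.24, adjusted p = 4.93e-06). Irf8, an interferon regulatory factor of effector CD8+ T cells and dendritic cells, read 21.1, 15.5, 14.4, 12.6 and 11.7 FPKM against 60.1, 47.8, 37.5, 34.3 and 46.6 FPKM, also without overlap (log2 change 1.53, SE 0.17, adjusted p = 4.31e-05). Batf3, an AP-1 family partner, rose from 1.76 ± 1.095 to 5.91 ± 2.54 FPKM (log2 change 1.3, adjusted p = 0.0209), and Zeb2, a zinc finger repressor found in terminal effector cells, from 1.37 ± 0.327 to 3.81 ± 0.852 FPKM (log2 change 1.01, adjusted p = 0.00098). Bhlhe40, a factor induced by activation, fell from 365 ± 15.6 to 277 ± 15.3 FPKM (log2 change -0.4, adjusted p = 0.0491). Irf8 and Batf3 also mark dendritic cells, whose marker sums are given with MHC class II. The lineage factors were not called. Tbx21, which encodes T-bet, went from 22.9 ± 4.91 to 14.9 ± 2.69 FPKM without overlap but missed the threshold (log2 change -0.58, adjusted p = 0.0584). Eomes (10.7 ± 2.72 to 10.7 ± 1.25 FPKM, log2 change 0.03, adjusted p = 0.964), Tox, a factor of exhausted cells (6.22 ± 1.18 to 4.22 ± 1.199 FPKM, log2 change -0.49, adjusted p = 0.44), and Id2 (2473 ± 450.5 to 3254 ± 445 FPKM, log2 change 0.41, adjusted p = 0.0582) missed it too. In refits with 9 of the 10 libraries the test was not passed by Batf3 (in 4 of 10 refits, the highest adjusted p, 0.0576, without Pembrolizumab 5) and Bhlhe40 (in 10 of 10 refits, the highest adjusted p, 0.108, without Control 1). At least 1 of the other settings tried also ended the call of Batf3 and Bhlhe40 (adjusted p up to 0.122).

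Tcf7, Id3 and 3 other genes of stem-like and memory cells fell. Of 23 tested, 0 rose, 5 fell and 18 did not pass the test (median log2 change -0.36, 21.7% called against 5.55% of all genes). Tcf7 encodes TCF-1, the factor that marks stem-like cells. It read 59.4, 29.2, 31.8, 39.4 and 23.04 FPKM in Control and 4.55, 12.9, 17.2, 7.54 and 17.2 FPKM after pembrolizumab, with the groups apart but the treated values spread several-fold (log2 change -1.61, SE 0.42, adjusted p = 0.0278). Id3, an inhibitor of E proteins kept by memory precursors, read 223, 141, 131, 118 and 88.98 FPKM against 46.4, 52.7, 33.6, 53.5 and 65.01 FPKM (log2 change -1.43, SE 0.27, adjusted p = 0.00458). Control 1 was the highest of the 10 libraries for both genes, and no treated library reached the Control range. S1pr1, the receptor that lets T cells leave tissue, read 61.7, 39.6, 45.3, 49.2 and 28.3 FPKM against 21.7, 21.6, 22.2, 19.4 and 22.7 FPKM, without overlap (log2 change -0.98, SE 0.22, adjusted p = 0.0139). Zeb1, a zinc finger repressor found in memory cells, fell from 12.99 ± 4.44 to 6.49 ± 1.15 FPKM (log2 change -0.86, adjusted p = 0.0103), and Slamf6, given with the receptors, was the fifth. Il7r, the interleukin 7 receptor of memory cells, gave 32.3 ± 11.7 to 22.4 ± 2.47 FPKM (log2 change -0.44, adjusted p = 0.224). These are bulk libraries, in which fewer cells of a type and less RNA per cell cannot be told apart. Control 1, the highest library for Tcf7, Id3, S1pr1 and Zeb1, is also the library farthest out on the leading principal component. Without it 4 of these genes fell, as without Pembrolizumab 1, and 5 with the level of macrophage, dendritic cell and MHC class II markers as a covariate (the other-cell marker covariate). Dropping a single library undid the call for Tcf7 (in 4 of 10 refits, the highest adjusted p, 0.0807, without Pembrolizumab 1) and Slamf6 (in 3 of 10 refits, the highest adjusted p, 0.0617, without Control 4). A change of filter, scaling, prior, covariate or groups in the fit ended the call of Tcf7, S1pr1 and Slamf6 (adjusted p up to 0.0947).

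**Figure D4:**
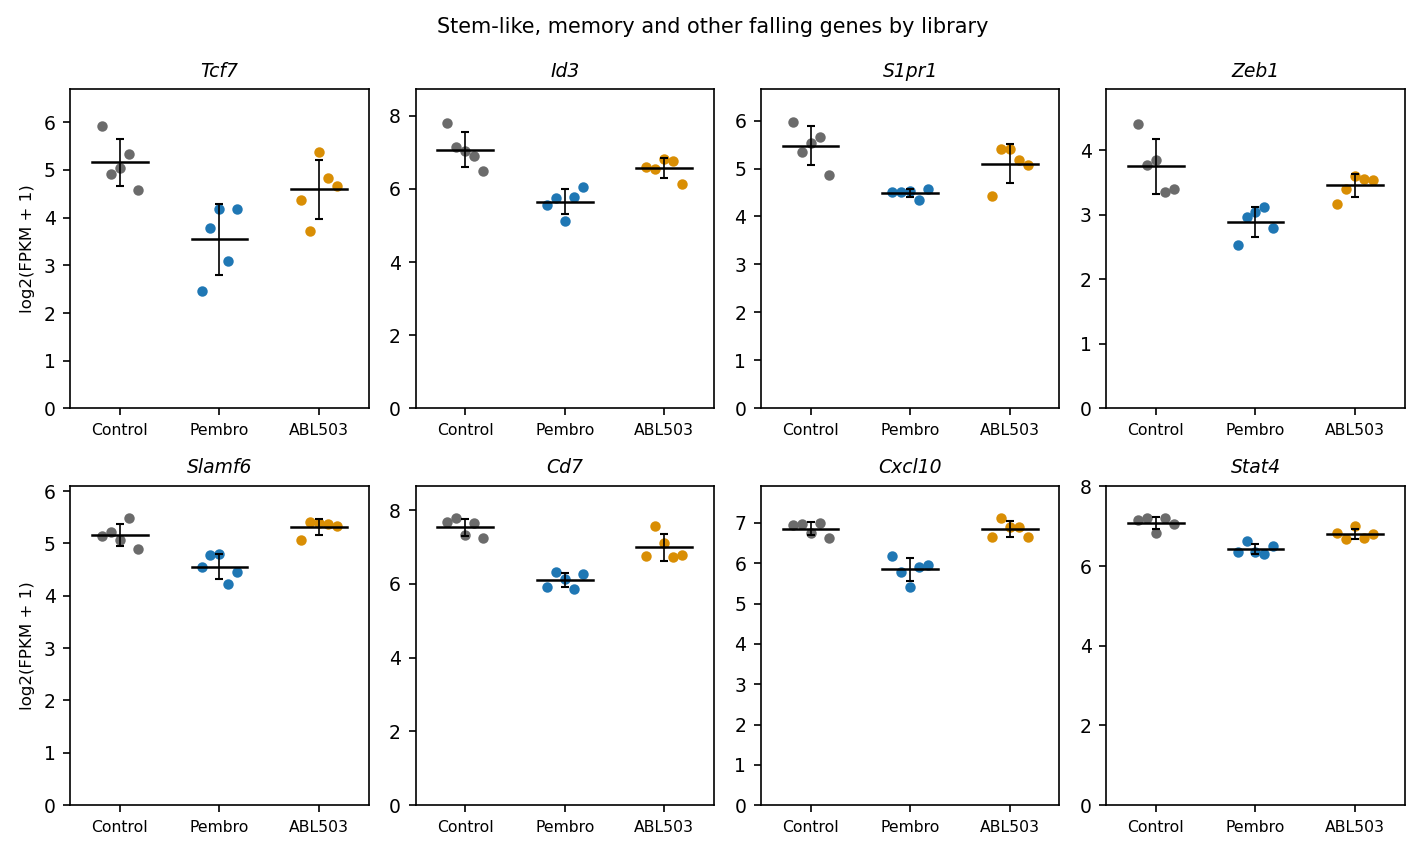
Log2(FPKM + 1) of 8 genes that fell (y axis, from 0) in the 5 libraries each of Control, pembrolizumab and ABL503 (x axis), with the mean as a bar and the SD as a whisker. In each of the 8 panels the pembrolizumab libraries lie below all Control libraries, and Tcf7 is the most spread among treated libraries.

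Among genes of T-cell receptor signalling, 4 passed the test. Of 34 tested, 1 rose, 3 fell and 30 did not pass the test (median log2 change -0.01, 11.8% called against 5.55% of all genes). The 3 that fell were Txk, a kinase of the TEC family (42.96 ± 14.3 to 23.2 ± 3.84 FPKM, log2 change -0.83, adjusted p = 0.0194), and 2 phosphatases that restrain the receptor, Ptpn22 (168 ± 13.2 to 128 ± 7.19 FPKM, log2 change -0.39, adjusted p = 0.0174) and Ptpn2 (125 ± 9.21 to 95.2 ± 13.7 FPKM, log2 change -0.4, adjusted p = 0.0359). Ubash3b, another restraining phosphatase, rose from 2.36 ± 0.792 to 5.54 ± 1.01 FPKM (log2 change 0.98, adjusted p = 0.0174). Among 32 tested genes induced within hours of stimulation, 3 rose, 2 fell and 27 did not pass the test (median log2 change -0.04, 15.6% called). Rgs16, which quenches chemokine receptor signals, rose from 53.6 ± 11.3 to 92.3 ± 11.2 FPKM (log2 change 0.79, adjusted p = 0.00485). Ier3 rose from 32.5 ± 9.41 to 70.6 ± 9.12 FPKM (log2 change 1.14, adjusted p = 0.000592) and the zinc finger factor Klf6 from 239.9 ± 44.7 to 316 ± 23.5 FPKM (log2 change 0.41, adjusted p = 0.0291). Dusp10, a MAP kinase phosphatase, fell from 35.9 ± 9.67 to 23.3 ± 2.55 FPKM (log2 change -0.58, adjusted p = 0.022), and Btg1, an antiproliferative gene of resting cells, from 291 ± 34.3 to 207 ± 35.7 FPKM (log2 change -0.5, adjusted p = 0.0174). Refits that dropped a single library lost Txk (in 1 of 10 refits, the highest adjusted p, 0.0532, without Control 1), Ptpn2 (in 6 of 10 refits, the highest adjusted p, 0.0909, without Control 4), Klf6 (in 5 of 10 refits, the highest adjusted p, 0.0745, without Control 4), Dusp10 (in 2 of 10 refits, the highest adjusted p, 0.0537, without Pembrolizumab 3) and Btg1 (in 1 of 10 refits, the highest adjusted p, 0.0509, without Control 1). Changed settings other than the libraries ended the call of Txk, Ptpn2, Ubash3b, Klf6, Dusp10 and Btg1 (adjusted p up to 0.086).

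More NF-kB genes fell than rose. Of 29 tested subunits and feedback targets, 2 rose, 8 fell and 19 did not pass the test (median log2 change -0.19). The share called was 34.5%, against 5.55% over all genes tested. Cd83, a surface protein induced by NF-kB in T cells, B cells and dendritic cells, read 19.1, 37.4, 20.6, 26.8 and 11.99 FPKM in Control and 10.3, 9.14, 6.92, 10.2 and 12.5 FPKM after pembrolizumab, with overlap at 1 Control library (log2 change -1.09, SE 0.26, adjusted p = 0.0192). Birc3, an inhibitor of apoptosis downstream of TNF receptors, read 34.1, 29.01, 31.3, 32.2 and 32.7 FPKM against 18.2, 19.6, 19.6, 26.1 and 19.6 FPKM without overlap, with Pembrolizumab 4 the highest treated library (log2 change -0.61, SE 0.11, adjusted p = 0.00293). Its relative Birc2 fell from 38.4 ± 3.84 to 28.1 ± 2.11 FPKM (log2 change -0.44, adjusted p = 0.0275). Tnfaip8 (53.5 ± 3.01 to 35.6 ± 6.24 FPKM, log2 change -0.59, adjusted p = 0.00584), the inhibitor Nfkbie (19.7 ± 5.37 to 11.96 ± 2.73 FPKM, log2 change -0.66, adjusted p = 0.0331) and the A20 partner Tnip1 (54.9 ± 9.19 to 38.5 ± 5.56 FPKM, log2 change -0.5, adjusted p = 0.0351) fell too. Tnip3, a relative of Tnip1, rose at a low level from 1.94 ± 0.571 to 6.45 ± 0.842 FPKM (log2 change 1.35, adjusted p = 0.000592), and Cflar, which blocks caspase-8, from 27.5 ± 3.95 to 40.96 ± 7.19 FPKM (log2 change 0.55, adjusted p = 0.0125). The 8 falls became 4 without Control 1, 4 without Pembrolizumab 1 and 5 with the other-cell marker covariate, which itself includes Cd83. Calls missing from refits with 9 libraries were those of Cd83 (in 3 of 10 refits, the highest adjusted p, 0.0537, without Control 2), Birc2 (in 6 of 10 refits, the highest adjusted p, 0.0726, without Pembrolizumab 1), Nfkbie (in 7 of 10 refits, the highest adjusted p, 0.0951, without Control 1) and Tnip1 (in 7 of 10 refits, the highest adjusted p, 0.0952, without Control 1). Among fits with another filter, scaling, prior or set of groups, at least 1 ended the call of Cd83, Birc2, Nfkbie, Tnip1 and Cflar (adjusted p up to 0.0901).

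Homing and adhesion genes were called in both directions. Of 30 tested, 4 rose, 4 fell and 22 did not pass the test (median log2 change -0.1, 26.7% called against 5.55% of all genes). The 4 falls became 1 without Control 1 and 2 without Pembrolizumab 1. Gpr183, a receptor for oxysterols that guides cells within lymphoid tissue, fell from 103 ± 16.1 to 69.4 ± 5.92 FPKM (log2 change -0.55, adjusted p = 0.00599), and Gpr18 from 73.6 ± 9.55 to 46.7 ± 6.25 FPKM (log2 change -0.65, adjusted p = 0.034). The CXCL12 receptor Cxcr4 fell from 22.7 ± 5.08 to 13.9 ± 2.75 FPKM (log2 change -0.66, adjusted p = 0.0324) and Itgae, the CD103 integrin of resident cells, from 1.904 ± 1.04 to 0.557 ± 0.312 FPKM (log2 change -0.85, adjusted p = 0.0462). Alcam, a ligand of CD6, rose from 2.59 ± 0.701 to 7.1 ± 1.45 FPKM (log2 change 1.18, adjusted p = 0.00458). Ccr2, an inflammatory chemokine receptor, rose from 17.7 ± 5.14 to 31.8 ± 8.61 FPKM (log2 change 0.82, adjusted p = 0.0182) and Itgb3 from 2.09 ± 1.06 to 4.32 ± 1.13 FPKM (log2 change 0.82, adjusted p = 0.0268). Xcr1 also rose and is given with the dendritic cell markers. Of 26 cytokine receptor genes, 3 rose, 1 fell and 22 did not pass the test (median log2 change -0.11, 15.4% called). Il2ra, the high-affinity chain for interleukin 2, read 14.6, 14.6, 17.3, 15.5 and 18.4 FPKM in Control and 49.9, 36.02, 32.01, 26.4 and 31.1 FPKM after pembrolizumab, without overlap (log2 change 1.05, SE 0.2, adjusted p = 0.00568). Il12rb2, which signals for interleukin 12, went up from 11.02 ± 2.998 to 17.9 ± 3.66 FPKM (log2 change 0.67, adjusted p = 0.0317), and Il10rb from 11.9 ± 1.501 to 17.3 ± 2.71 FPKM (log2 change 0.5, adjusted p = 0.0415). Ifngr1, the binding chain for interferon gamma, fell from 469 ± 63.3 to 353 ± 22.5 FPKM (log2 change -0.4, adjusted p = 0.0369). With a single library set aside, the threshold was missed by Gpr18 (in 7 of 10 refits, the highest adjusted p, 0.0872, without Pembrolizumab 5), Cxcr4 (in 5 of 10 refits, the highest adjusted p, 0.0871, without Pembrolizumab 3), Itgae (in 6 of 10 refits, the highest adjusted p, 0.124, without Control 1), Ccr2 (in 2 of 10 refits, the highest adjusted p, 0.0541, without Control 1), Itgb3 (in 5 of 10 refits, the highest adjusted p, 0.0762, without Control 1), Il12rb2 (in 6 of 10 refits, the highest adjusted p, 0.0899, without Pembrolizumab 1), Il10rb (in 7 of 10 refits, the highest adjusted p, 0.107, without Pembrolizumab 3) and Ifngr1 (in 6 of 10 refits, the highest adjusted p, 0.0865, without Pembrolizumab 1). At least 1 of the other settings tried also ended the call of Gpr18, Cxcr4, Itgae, Ccr2, Itgb3, Il12rb2, Il10rb and Ifngr1 (adjusted p up to 0.125).

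The 2 lists of interferon targets and factors gave 7 calls in all. The share called was 6.67% for type I interferon and 18.5% for interferon gamma, against 5.55% over all genes tested. Of 30 tested type I interferon targets, 0 rose, 2 fell and 28 did not pass the test (median log2 change -0.12), the 2 being the near-identical Ifit3 (35.4 ± 14.3 to 17.5 ± 2.15 FPKM, log2 change -0.89, adjusted p = 0.0264) and Ifit3b (8.55 ± 2.83 to 3.87 ± 0.548 FPKM, log2 change -0.93, adjusted p = 0.00584), whose reads may be shared. Of 27 interferon gamma targets and factors, 2 rose, 3 fell and 22 did not pass the test (median log2 change -0.09). Stat4, which carries interleukin 12 signals, read 141, 146, 113, 146 and 132 FPKM against 81.003, 97.2, 80.7, 77.9 and 89.6 FPKM, each treated library below each Control library (log2 change -0.66, SE 0.09, adjusted p = 0.000436). Irf1 fell from 232 ± 41.2 to 159.7 ± 12.9 FPKM (log2 change -0.52, adjusted p = 0.0474) and the GTPase gene Tgtp2 from 55.3 ± 10.5 to 37.3 ± 4.45 FPKM (log2 change -0.54, adjusted p = 0.0173). Gbp7, a guanylate-binding protein, rose from 9.797 ± 1.53 to 15.9 ± 1.701 FPKM (log2 change 0.65, adjusted p = 0.0129), and Irf8, on the same list, rose as well. Of 19 MHC class I and immunoproteasome genes 0 passed the limma test, and 5 had an unadjusted p under 0.05. In refits with 9 of the 10 libraries the test was not passed by Ifit3 (in 5 of 10 refits, the highest adjusted p, 0.0756, without Control 1), Irf1 (in 9 of 10 refits, the highest adjusted p, 0.132, without Control 1) and Tgtp2 (in 1 of 10 refits, the highest adjusted p, 0.0503, without Control 1). A change of filter, scaling, prior, covariate or groups in the fit ended the call of Ifit3, Irf1 and Tgtp2 (adjusted p up to 0.131).

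Aldolase and 8 other glycolytic genes rose. Of 22 tested genes of glycolysis and lactate handling, 9 rose, 0 fell and 13 did not pass the test (40.9% called against 5.55% of all genes, median log2 change 0.33). Their summed FPKM ran from 3437 to 4061 FPKM in Control and 4608 to 7018 FPKM after pembrolizumab, so the groups did not overlap. Aldoa, aldolase, read 437, 442, 513, 539 and 601 FPKM in Control and 1123, 978, 862, 824 and 986 FPKM after pembrolizumab, without overlap (log2 change 0.91, SE 0.1, adjusted p = 4.3e-05). Eno1, enolase, went from 748 ± 81.5 to 1255 ± 292 FPKM (log2 change 0.72, adjusted p = 0.00589). Pgk1, phosphoglycerate kinase, went from 186 ± 16.003 to 335 ± 49.2 FPKM (log2 change 0.84, adjusted p = 0.000361). Tpi1, triose phosphate isomerase, rose from 225 ± 27.7 to 433 ± 110.2 FPKM (log2 change 0.91, adjusted p = 0.00146), and Ldha, lactate dehydrogenase A, from 681 ± 70.7 to 1037 ± 176 FPKM (log2 change 0.6, adjusted p = 0.00523). The glucose transporter Slc2a3 rose from 7.34 ± 1.73 to 16.7 ± 2.49 FPKM (log2 change 1.09, adjusted p = 0.000906). The count of 9 was 8 without Control 1, 7 without Pembrolizumab 1 and 9 with the other-cell marker covariate. Of 24 hypoxia response and mitophagy genes, 5 rose, 0 fell and 19 did not pass the test (median log2 change 0.26, 20.8% called). Bnip3, a mitophagy receptor induced by HIF-1, read 8.31, 6.38, 16.03, 9.11 and 13.03 FPKM in Control and 57.7, 58.5, 44.99, 37.1 and 46.9 FPKM after pembrolizumab, with no overlap (log2 change 2.16, SE 0.28, adjusted p = 0.000248). Ndrg1, another HIF-1 target, read 5.98, 8.901, 7.79, 6.99 and 6.34 FPKM against 22.97, 20.7, 16.1, 16.4 and 23.6 FPKM (log2 change 1.35, SE 0.23, adjusted p = 0.00224). Fam162a rose from 118 ± 17.8 to 198 ± 33.2 FPKM (log2 change 0.73, adjusted p = 0.0139) and the cytokine gene Mif from 824 ± 112 to 1360.5 ± 249 FPKM (log2 change 0.71, adjusted p = 0.00184). Ier3 was the fifth. Changed settings other than the libraries ended the call of Fam162a (adjusted p = 0.052).

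The hypoxia response element core, ACGTG on either strand, is shown in capitals in RefSeq (GRCm38.p6) sequence before a gene of each list, printed 5′ to 3′ on the gene's strand, for Bnip3 (chr7:138909507-138909756, minus strand) and Pgk1 (chrX:106186850-106187099, plus strand). The capitals in Bnip3 are 2 matches that overlap in the palindrome CACGTG.
Bnip3: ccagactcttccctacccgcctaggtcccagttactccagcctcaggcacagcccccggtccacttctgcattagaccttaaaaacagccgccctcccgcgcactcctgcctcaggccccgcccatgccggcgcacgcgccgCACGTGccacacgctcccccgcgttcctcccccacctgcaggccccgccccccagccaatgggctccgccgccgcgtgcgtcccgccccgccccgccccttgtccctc
Pgk1: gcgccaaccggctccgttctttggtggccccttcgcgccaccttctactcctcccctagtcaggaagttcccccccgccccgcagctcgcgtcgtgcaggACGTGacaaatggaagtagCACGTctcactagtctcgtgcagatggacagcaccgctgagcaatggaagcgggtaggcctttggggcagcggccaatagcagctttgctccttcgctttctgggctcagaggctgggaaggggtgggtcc

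Within 250 bases before the start, the core was found in 7 of the 12 glycolysis and hypoxia genes that rose and have such a window (58.3%), and in 22 of the 39 tested members (56.4%), so it did not set apart the genes that rose. The share was 25.5% over 8087 tested genes with a window and 18.5% over all 27025. A match is a string of letters and not a known binding site.

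In the other metabolic lists at most 2 genes passed. Of 39 respiratory chain genes, 2 rose, 0 fell and 37 did not pass the test (median log2 change 0.13). The share called, 5.13%, was no higher than the 5.55% over all genes tested. The 2 were cytochrome c, Cycs (100.2 ± 12.7 to 136 ± 9.16 FPKM, log2 change 0.44, adjusted p = 0.0264), and Sdhc of complex II (30.4 ± 3.18 to 40.2 ± 4.11 FPKM, log2 change 0.39, adjusted p = 0.0209). Neither was called without Control 1 or without Pembrolizumab 1. Of 24 lipid genes, 2 rose, 0 fell and 22 did not pass the test (median log2 change 0.11, 8.33% called). Plin2, which coats lipid droplets, read 15.4, 6.67, 16.3, 13.4 and 13.4 FPKM against 27.8, 30.2, 63.4, 20.9 and 50.1 FPKM without overlap, with Control 2 low in its group (log2 change 1.43, SE 0.31, adjusted p = 0.0096), and Fabp5, a fatty acid carrier, went from 41.7 ± 4.32 to 56.6 ± 7.69 FPKM (log2 change 0.43, adjusted p = 0.0264). Of 12 metallothionein and zinc genes, 2 rose, 0 fell and 10 did not pass the test (median log2 change -0.07, 16.7% called). The metallothioneins Mt2 (31.7 ± 11.3 to 97.1 ± 26.2 FPKM, log2 change 1.62, adjusted p = 0.00196) and Mt1 (151 ± 43.8 to 358 ± 129 FPKM, log2 change 1.23, adjusted p = 0.0402), which bind zinc, are alike in sequence. Of 24 cholesterol and fatty acid synthesis genes and 16 nutrient transporters 0 passed limma's test and 1 and 5 had an unadjusted p under 0.05, with median log2 changes of -0.1 and 0.12. Dropping a single library undid the call for Cycs (in 5 of 10 refits, the highest adjusted p, 0.0744, without Control 1), Sdhc (in 4 of 10 refits, the highest adjusted p, 0.0592, without Pembrolizumab 1), Fabp5 (in 6 of 10 refits, the highest adjusted p, 0.0706, without Pembrolizumab 1) and Mt1 (in 7 of 10 refits, the highest adjusted p, 0.111, without Control 1). Among fits with another filter, scaling, prior or set of groups, at least 1 ended the call of Cycs, Sdhc, Fabp5 and Mt1 (adjusted p up to 0.129).

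Chaperone genes of the cytosol, mitochondria and endoplasmic reticulum were among those that rose. Of 32 heat shock and unfolded protein response genes, 8 rose, 1 fell and 23 did not pass the test (median log2 change 0.16). The share called was 28.1%, against 5.55% over all genes tested. Hsp90ab1 rose from 777 ± 65.98 to 983 ± 78.2 FPKM (log2 change 0.34, adjusted p = 0.0135) and the lectin chaperone Canx from 34.2 ± 4.597 to 46.5 ± 1.57 FPKM (log2 change 0.44, adjusted p = 0.0121). The disulphide isomerase Pdia4 rose from 10.2 ± 1.16 to 16.8 ± 3.59 FPKM (log2 change 0.66, adjusted p = 0.0139), Sdf2l1 from 33.3 ± 5.86 to 55.002 ± 7.06 FPKM (log2 change 0.72, adjusted p = 0.00584) and mitochondrial Hspd1 from 63.1 ± 6.29 to 90.5 ± 13.9 FPKM (log2 change 0.51, adjusted p = 0.0331). Asns, asparagine synthetase and a target of ATF4, read 6.95, 8.01, 6.54, 12.8 and 8.85 FPKM in Control and 44.96, 35.3, 17.2, 12.5 and 24.6 FPKM after pembrolizumab, with overlap (log2 change 1.43, SE 0.27, adjusted p = 0.00395). Herpud1, an endoplasmic reticulum stress gene, fell from 109 ± 13.9 to 72.9 ± 9.61 FPKM (log2 change -0.58, adjusted p = 0.0105). The 8 rises were 5 without Control 1 and 5 without Pembrolizumab 1. Refits that dropped a single library lost Hspd1 (in 7 of 10 refits, the highest adjusted p, 0.0897, without Pembrolizumab 5). At least 1 of the other settings tried also ended the call of Hsp90ab1 and Hspd1 (adjusted p up to 0.137).

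Division genes of G2 and mitosis gave no call. Of 30 G2 and mitosis genes 0 passed limma's test and 3 had an unadjusted p under 0.05, with a median log2 change of 0.02, and Mki67, the proliferation marker, gave 6.89 ± 1.81 to 7.297 ± 1.79 FPKM (log2 change 0.08, adjusted p = 0.866, 95% bounds -0.28 and 0.43). Over all 11794 genes tested, 2383 had an unadjusted p under 0.05. Of 34 G1 to S genes, 3 rose, 1 fell and 30 did not pass the test (median log2 change -0.07, 11.8% called against 5.55% of all genes). Cyclin D2, Ccnd2 (28.6 ± 3.98 to 45.6 ± 4.97 FPKM, log2 change 0.66, adjusted p = 0.00105), and its kinase Cdk6 (3.74 ± 0.772 to 6.63 ± 0.8701 FPKM, log2 change 0.69, adjusted p = 0.00593) rose. E2f2 rose as well (1.32 ± 0.343 to 2.41 ± 0.314 FPKM, log2 change 0.56, adjusted p = 0.00949), and Ccne2 fell from 5.797 ± 1.54 to 3.37 ± 0.595 FPKM (log2 change -0.62, adjusted p = 0.0301). Of 26 MYC and ribosome biogenesis genes, 0 rose, 2 fell and 24 did not pass the test (median log2 change -0.03, 7.69% called, near the share of all genes). They were Odc1, which starts polyamine synthesis (889 ± 171 to 611 ± 108 FPKM, log2 change -0.54, adjusted p = 0.0425), and Wdr43 (41.7 ± 5.98 to 30.99 ± 2.41 FPKM, log2 change -0.41, adjusted p = 0.0353), and neither was called without Control 1, without Pembrolizumab 1 or with the other-cell marker covariate. Of 17 BCL2 family genes, 2 rose, 0 fell and 15 did not pass the test (median log2 change 0.17, 11.8% called). The 2 were Bnip3 and the pro-apoptotic Bax (95.9 ± 14.7 to 139 ± 9.53 FPKM, log2 change 0.54, adjusted p = 0.00957). Calls missing from refits with 9 libraries were those of Ccne2 (in 7 of 10 refits, the highest adjusted p, 0.0828, without Control 4), Odc1 (in 8 of 10 refits, the highest adjusted p, 0.12, without Control 1) and Wdr43 (in 8 of 10 refits, the highest adjusted p, 0.0881, without Control 4). A change of filter, scaling, prior, covariate or groups in the fit ended the call of E2f2, Ccne2, Odc1 and Wdr43 (adjusted p up to 0.123).

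Ms4a4a, Ms4a4b and Ly6a led the surface protein genes that rose. Of 24 tested tetraspanin, MS4A and LY6 genes, 5 rose, 2 fell and 17 did not pass the test (median log2 change 0.23). The share called was 29.2%, against 5.55% over all genes tested. Ms4a4a, a membrane-spanning protein, read 4.72, 7.68, 8.97, 5.45 and 13.4 FPKM in Control and 27.9, 32.4, 37.99, 22.1 and 20.7 FPKM after pembrolizumab, without overlap (log2 change 1.74, SE 0.23, adjusted p = 0.000248). Ms4a4b, its abundant relative, went from 1036 ± 260.1 to 1674 ± 195 FPKM (log2 change 0.73, adjusted p = 0.00584). Ly6a, or Sca-1, rose from 608 ± 135 to 1059.9 ± 92.7 FPKM (log2 change 0.83, adjusted p = 0.00641) and Thy1 from 56.2 ± 8.63 to 87.7 ± 14.99 FPKM (log2 change 0.63, adjusted p = 0.00568). Ly6a2, which resembles Ly6a and may share its reads, rose from 4.42 ± 1.75 to 17.3 ± 13.02 FPKM (log2 change 1.61, adjusted p = 0.00835). The tetraspanin Cd53 rose from 470.3 ± 46.2 to 619 ± 88.999 FPKM (log2 change 0.39, adjusted p = 0.046), whereas Tspan13 fell from 71.1 ± 15.03 to 48.9 ± 3.83 FPKM (log2 change -0.51, adjusted p = 0.0234) and Ly6e from 709.8 ± 94.8 to 534 ± 45.996 FPKM (log2 change -0.4, adjusted p = 0.0292). Of 8 GIMAP genes, GTPases of lymphocyte survival, 0 rose, 1 fell and 7 did not pass the test (median log2 change -0.2, 12.5% called). The 1 that fell was Gimap6 (303 ± 31.3 to 211 ± 13.7 FPKM, log2 change -0.51, adjusted p = 0.00246). Of 25 regulators of G-protein signalling and receptors, 1 rose, 4 fell and 20 did not pass the test (median log2 change 0.11). Rgs10 read 64.9, 79.8, 60.8, 55.7 and 60.5 FPKM against 18.6, 35.7, 31.05, 56.8 and 28.5 FPKM, with overlap (log2 change -0.97, SE 0.22, adjusted p = 0.014). Gpr15, a gut homing receptor, fell from 4.05 ± 0.692 to 1.24 ± 0.979 FPKM (log2 change -1.28, adjusted p = 0.0166), P2ry10 from 35.5 ± 5.198 to 24.7 ± 2.5 FPKM (log2 change -0.5, adjusted p = 0.00917) and the ATP-gated channel P2rx7 from 2.24 ± 1.06 to 0.638 ± 0.392 FPKM (log2 change -0.96, adjusted p = 0.03). Rgs16 was the gene that rose. With a single library set aside, the threshold was missed by Cd53 (in 7 of 10 refits, the highest adjusted p, 0.117, without Control 1), Tspan13 (in 4 of 10 refits, the highest adjusted p, 0.0687, without Control 1), Ly6e (in 5 of 10 refits, the highest adjusted p, 0.0831, without Pembrolizumab 1) and P2rx7 (in 6 of 10 refits, the highest adjusted p, 0.0765, without Pembrolizumab 3). Changed settings other than the libraries ended the call of Cd53, Tspan13, Ly6e, Rgs10, Gpr15 and P2rx7 (adjusted p up to 0.116).

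Several of the largest changes belonged to none of the lists. Among well-expressed genes that fell, Tdrp read 37.3, 11.04, 13.4, 9.72 and 9.65 FPKM in Control and 2.63, 5.21, 1.76, 3.43 and 5.92 FPKM after pembrolizumab, with Control 1 far above the other Control libraries and still no overlap without it (log2 change -1.73, SE 0.35, adjusted p = 0.00675). Krt83, a hair keratin gene, read 25.9, 41.4, 44.2, 27.05 and 35.1 FPKM against 6.197, 6.27, 10.8, 15.9 and 15.97 FPKM (log2 change -1.64, SE 0.23, adjusted p = 0.000481), and the lowest Control library was well above the highest treated library. Gna13, a G-protein alpha subunit, fell from 379 ± 55.4 to 192 ± 24.9 FPKM (log2 change -0.98, adjusted p = 0.00111), and Tsc22d1, a leucine zipper factor, from 15.9 ± 5.09 to 6.05 ± 0.837 FPKM (log2 change -1.2, adjusted p = 0.006). Timp2, an inhibitor of metalloproteinases, fell from 13.3 ± 2.71 to 5.997 ± 2.31 FPKM (log2 change -1.08, adjusted p = 0.00568). Qpct, glutaminyl cyclase, fell from 14.3 ± 4.799 to 5.75 ± 1.91 FPKM (log2 change -1.17, adjusted p = 0.00584) and Tcp11l2 from 67.4 ± 7.25 to 35.1 ± 4.91 FPKM (log2 change -0.93, adjusted p = 0.00107). Among less abundant genes, Nupr1, a stress-induced nuclear protein, read 0, 0, 1.804, 0.934 and 0 FPKM against 5.74, 6.89, 5.17, 4.405 and 7.03 FPKM (log2 change 2.27, SE 0.36, adjusted p = 0.00107), without overlap. Tg, the thyroglobulin symbol, rose from 2.87 ± 0.6605 to 10.9 ± 4.25 FPKM (log2 change 1.54, adjusted p = 0.000782). Crabp2, a retinoic acid carrier, rose from 1.36 ± 0.535 to 6.77 ± 3.199 FPKM (log2 change 1.65, adjusted p = 0.0282), Nme6 from 2.88 ± 1.397 to 9.21 ± 1.76 FPKM (log2 change 1.44, adjusted p = 0.00485) and Syngr1 from 0.746 ± 0.332 to 3.62 ± 1.27 FPKM (log2 change 1.38, adjusted p = 0.00949). Itpkb, an inositol trisphosphate kinase, fell from 10.6 ± 5.27 to 2.76 ± 1.56 FPKM (log2 change -1.54, adjusted p = 0.0402), and Mmp10, stromelysin-2, from 4.92 ± 2.67 to 1.41 ± 0.973 FPKM (log2 change -1.24, adjusted p = 0.0321). The groups overlapped for Itpkb and for Mmp10. Rgmb, a ligand of PD-L2, fell from 3.54 ± 1.38 to 1.18 ± 0.699 FPKM (log2 change -1.07, adjusted p = 0.0197) and Cnn3, calponin-3, from 3.198 ± 1.49 to 0.9997 ± 0.275 FPKM (log2 change -0.96, adjusted p = 0.0369), with overlap for Cnn3. In refits with 9 of the 10 libraries the test was not passed by Crabp2 (in 4 of 10 refits, the highest adjusted p, 0.074, without Pembrolizumab 3), Itpkb (in 8 of 10 refits, the highest adjusted p, 0.112, without Control 1), Mmp10 (in 8 of 10 refits, the highest adjusted p, 0.0889, without Control 4), Rgmb (in 2 of 10 refits, the highest adjusted p, 0.0578, without Control 1) and Cnn3 (in 8 of 10 refits, the highest adjusted p, 0.0916, without Control 1). Among fits with another filter, scaling, prior or set of groups, at least 1 ended the call of Crabp2, Itpkb, Mmp10, Rgmb and Cnn3 (adjusted p up to 0.125).

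Cd74 and 2 other MHC class II genes fell. These genes present antigen to CD4+ T cells and are made mainly by dendritic cells, macrophages and B cells. Of 8 tested, 0 rose, 3 fell and 5 did not pass the test (median log2 change -0.85, 37.5% called against 5.55% of all genes). Their summed FPKM ran from 147 to 473 FPKM in Control and 46.9 to 162 FPKM after pembrolizumab, with overlap. Cd74, the invariant chain, read 97.9, 97.6, 197, 113 and 67.8 FPKM in Control and 41.98, 50.3, 31.8, 69.3 and 20.9 FPKM after pembrolizumab, with Control 3 the highest library (log2 change -1.42, SE 0.32, adjusted p = 0.0139). H2-Oa read 15.7, 8.57, 8.74, 10.02 and 6.61 FPKM against 2.84, 5.81, 4.23, 5.45 and 5.14 FPKM without overlap (log2 change -0.92, SE 0.2, adjusted p = 0.012), and H2-DMb2 went from 1.97 ± 0.813 to 0.704 ± 0.371 FPKM (log2 change -0.79, adjusted p = 0.0339). The class II chains H2-Aa (26.1 ± 24.4 to 13.9 ± 8.74 FPKM, log2 change -0.77, adjusted p = 0.49), H2-Ab1 (54.3 ± 46.7 to 23.7 ± 17.5 FPKM, log2 change -1.16, adjusted p = 0.172) and H2-Eb1 (13.99 ± 14.3 to 4.91 ± 2.42 FPKM, log2 change -1.08, adjusted p = 0.26), named after their values were seen, did not pass. The sort may hold other cells, and marker lists for them were summed in each library. Of 13 macrophage and monocyte markers 0 passed the limma test (3 at an unadjusted p under 0.05), and their summed level ran from 155 to 423 FPKM in Control and 135 to 254 FPKM after pembrolizumab. Among them, named after their values were seen, Lyz2 stood at 0 to 64.9 FPKM and C1qb at 0 to 13.1 FPKM over the 10 libraries. Of 8 tested dendritic cell markers 3 rose, namely Irf8, Batf3 and Xcr1 (2.52 ± 0.299 to 4.36 ± 0.549 FPKM, log2 change 0.61, adjusted p = 0.0173), and 1 fell, Cd83, with sums from 36.97 to 68.1 FPKM in Control and 59.7 to 89.6 FPKM after pembrolizumab. The median of these sums was 63.7 FPKM in Control and 79.2 FPKM after pembrolizumab, and the part of dendritic cells in the 3 rises was not tested. The share called of the 8 dendritic cell markers was 50.0%. Of 3 tested B cell and plasma cell markers 0 passed (1 at an unadjusted p under 0.05), with sums from 134 to 212 FPKM in Control and 98.9 to 348 FPKM after pembrolizumab. Of 5 NK cell markers 2 rose, Klre1 and Nkg7, with the sums given beside the NK-type receptors. Of 6 CD4 and regulatory T cell markers 1 rose, Il2ra, 0 fell and 5 did not pass (16.7% called). Il2ra was the only tested member with a log2 change above 0 (median -0.18, lowest -1.17). The list summed to 422 to 651 FPKM in Control and 388 to 643 FPKM after pembrolizumab, with overlap. Of 5 gamma delta and innate-like T cell markers and 4 epithelial and MC38 tumour cell markers 0 passed (2 and 2 at an unadjusted p under 0.05), and the latter summed to 11.7 to 17.7 FPKM in Control and 6.97 to 15.2 FPKM after pembrolizumab. No fibroblast marker was high enough to test, and their sums ran from 0.282 to 1.89 FPKM in Control and 0.376 to 1.32 FPKM after pembrolizumab. With the mean log2(FPKM + 1) of the tested macrophage, dendritic cell and MHC class II markers as a covariate, 548 genes passed and 499 of the 655 were among them. The covariate holds the MHC class II genes and the dendritic cell markers Irf8, Batf3, Xcr1 and Cd83, so it is no separate check of those genes. The part of other cells in the MHC class II values was not tested. Dropping a single library undid the call for H2-DMb2 (in 6 of 10 refits, the highest adjusted p, 0.0772, without Control 3) and Xcr1 (in 1 of 10 refits, the highest adjusted p, 0.0503, without Pembrolizumab 5). At least 1 of the other settings tried also ended the call of Cd74 and H2-DMb2 (adjusted p up to 0.0897).

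**Figure D5:**
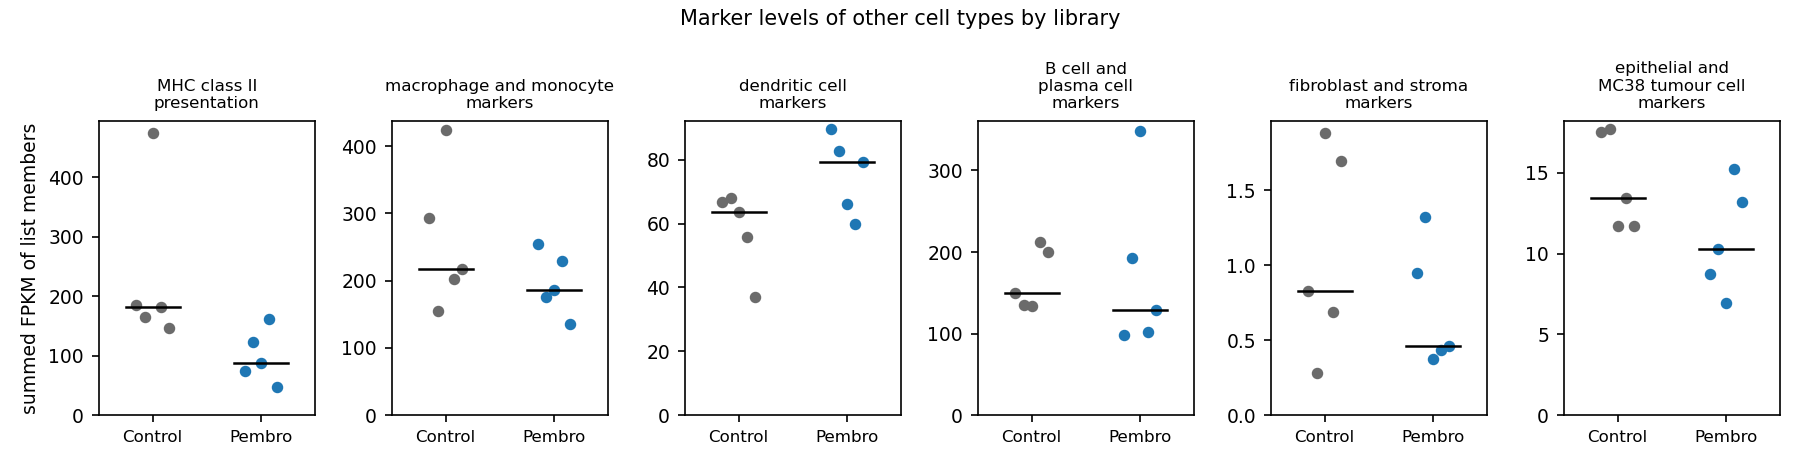
Summed FPKM of 6 marker lists (y axis of each panel, from 0) in the 5 Control and 5 pembrolizumab libraries (x axis), 1 point per library with the median as a bar. MHC class II sums are lower after pembrolizumab with overlap, while macrophage and fibroblast marker sums overlap broadly.

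A direct test against the ABL503 libraries shows where pembrolizumab left the cells at another level than the bispecific antibody did. Of the 11794 genes, 151 (1.28%) differed at an adjusted p under 0.05 by limma, 49 (0.415%) higher and 102 (0.865%) lower after pembrolizumab, and 74 of the 655 genes that changed against Control were among them. Among the 74, 27 were higher and 46 lower after pembrolizumab in both comparisons. A gene that did not pass may still differ. Prf1 read 18.9, 11.3, 11.1, 10.6 and 8.01 FPKM in ABL503 1 to 5, below all pembrolizumab libraries (log2 change 1.43, SE 0.21, adjusted p = 0.00447). Gzma read 135, 465, 135, 202 and 138 FPKM (log2 change 2.02, SE 0.34, adjusted p = 0.00555). The ABL503 values of Gzmb were 1266, 1007, 942, 944 and 927 FPKM (log2 change 1.14, SE 0.2, adjusted p = 0.00609). These 3 cytotoxic genes were thus higher after pembrolizumab than after ABL503. Gzmc, in contrast, read 248, 473, 411, 396 and 409 FPKM after ABL503, above every pembrolizumab library, but did not pass (difference -2.02 with 95% bounds of -3.32 and -0.71, adjusted p = 0.131). Klra5 was higher after pembrolizumab as well, against 3.12, 3.88, 0.984, 3.301 and 0.414 FPKM in the ABL503 libraries (log2 change 3.24, SE 0.55, adjusted p = 0.00609). Cd83 was lower after pembrolizumab, against 24.5, 33.9, 54.96, 43.7 and 30.2 FPKM after ABL503 (log2 change -1.79, SE 0.26, adjusted p = 0.00447), as was Cxcl10, against 100.1, 138, 119, 119 and 100.3 FPKM (log2 change -1.0, SE 0.16, adjusted p = 0.00501). Gpr183 (log2 change -0.62, SE 0.11, adjusted p = 0.00703), Slamf6 (log2 change -0.76, SE 0.15, adjusted p = 0.0156), Birc2 (log2 change -0.58, SE 0.11, adjusted p = 0.0144), Tspan13 (log2 change -0.7, SE 0.13, adjusted p = 0.00929) and Mmp10 (log2 change -1.89, SE 0.33, adjusted p = 0.00656) were lower too. Each of these 11 passed when any 1 library of the 2 groups was left out. Zbtb32 (log2 change 1.02, SE 0.24, adjusted p = 0.0376), Bnip3 (log2 change 1.2, SE 0.28, adjusted p = 0.0404), Tnfrsf9 (log2 change 0.55, SE 0.12, adjusted p = 0.02) and Cd74 (log2 change -1.53, SE 0.32, adjusted p = 0.0224) also differed. Some refits without 1 library lost the call, for Zbtb32 (7 libraries, adjusted p up to 0.102 without Pembrolizumab 1), Bnip3 (9 libraries, adjusted p up to 0.113 without ABL503 4), Tnfrsf9 (2 libraries, adjusted p up to 0.0702 without ABL503 2) and Cd74 (5 libraries, adjusted p up to 0.0735 without ABL503 2). Calls of these 4 also ended without the filter on low values for Bnip3, Cd74, Tnfrsf9 and Zbtb32 (adjusted p up to 0.127). The call of Zbtb32 ended with the other-cell marker covariate (adjusted p = 0.076), and those of Bnip3 and Zbtb32 without the intensity trend (adjusted p up to 0.0583). That of Bnip3 ended with the replicate number as a block too (adjusted p = 0.0645). Hspd1 rose against Control but was lower after pembrolizumab than after ABL503 (log2 change -0.56, SE 0.14, adjusted p = 0.0445). Its ABL503 values were 144, 175, 145, 106 and 105 FPKM. Refits without 1 library lost this call for 7 libraries (adjusted p up to 0.138 without ABL503 2), and other settings ended it too. For Tcf7 the difference was -1.05 with 95% bounds of -1.92 and -0.18 (adjusted p = 0.256), for Havcr2 0.33 with 95% bounds of 0.02 and 0.64 (adjusted p = 0.332) and for Gzmf -0.09 with 95% bounds of -1.59 and 1.42 (adjusted p = 0.975), and these 3 did not pass. The count of 151 ran from 54 without ABL503 2 to 218 without ABL503 1, and was 301 with array weights.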

How the data were processed

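RNA from sorted CD8+ tumour-infiltrating T cells was amplified with the SMART-Seq v4 kit, per the labels' protocols. The authors used HISAT2 and StringTie on GRCm38 (mm10), per the submitters' processing notes, with versions not given in the sources used here. The deposited table names no unit. Its values were taken as FPKM from the authors' use of StringTie and from library sums that differ, and were used as deposited, so depth is unknown.

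Values were analysed as log2(FPKM + 1), with pseudocount 1, for genes reaching 1 FPKM in 5 or more of 20 libraries. limma 3.58.1 (R 4.3.3) fitted 1 mean per group in 4 groups of 5 with an intensity trend (16 residual degrees of freedom). Tests were two-sided with Benjamini-Hochberg adjustment over all 11794 genes and a threshold of 0.05. The analysis was tested on simulated data with the Control means and spread of these libraries. It recovered 37 of 73 genes changed 1.5-fold, 45 of 53 changed 2-fold and 70 of 74 changed 4-fold, with 7 wrong calls. The changed genes were drawn from above a minimum Control level, so genes of lower level were not covered. Tables and figures used Python 3.11.15, pandas 2.3.3 and matplotlib 3.10.9. Of the table's symbols 40686 were found in RefSeq, the source of positions and sequences.

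Named genes were the 15 largest called rises and 15 largest falls at a mean log2 level of at least 3, 6 each way at a mean of 1 to 3, up to 6 called members of each list in each direction, a fixed panel of T-cell genes and all perforin and granzyme genes, with unnamed, provisional and receptor-segment symbols left out. Members, lists and rules were chosen with earlier results of these data known. A list count gives called members, beside 5.55% of all genes. The other-cell marker covariate was the mean log2(FPKM + 1) of the tested macrophage, dendritic cell and MHC class II markers. Settings tried were the pseudocount, 2 filters, 2 scalings, the groups in the fit, array weights, no trend, the replicate block, the covariate, 2 thresholds and each library left out.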

Additional observations from a re-analysis of the deposited data

Results flagged for a closer look

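Single libraries stood apart from the other 4 of their group in 14 of 306 gene and group pairs among the named genes, where the gap to the nearest library exceeded Dixon's 95% critical value of 0.71 of the group's range. Chance alone gives about 1 in 20 such groups. Control 1 was high for Tnfrsf9, at 131 FPKM against 97.4 to 104 FPKM in the others, for Tdrp, at 37.3 FPKM against 9.65 to 13.4 FPKM, and for Gzme, at 1.18 FPKM against 0 to 0.0485 FPKM. Control 2 was low for Gbp7, at 7.14 FPKM against 9.84 to 10.7 FPKM, and for Plin2, at 6.67 FPKM against 13.4 to 16.3 FPKM. Control 4 was low for Cnn3, at 0.545 FPKM against 3.68 to 4.06 FPKM.

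Among the treated libraries, Pembrolizumab 3 was low for Gzmf, at 11.2 FPKM against 55.6 to 92.2 FPKM in the others, and for Fabp5, at 43.1 FPKM against 58.3 to 62.1 FPKM, and high for Gbp7, at 18.8 FPKM against 14.6 to 15.5 FPKM. Pembrolizumab 2 was low for Ifit3b, at 2.92 FPKM against 3.93 to 4.25 FPKM. Pembrolizumab 4 was high for Birc3, at 26.1 FPKM against 18.2 to 19.6 FPKM, and for P2ry10, at 29.04 FPKM against 22.7 to 24.2 FPKM. Pembrolizumab 5 was high for Tnip3, at 7.94 FPKM against 5.904 to 6.23 FPKM, and for Xcr1, at 5.304 FPKM against 3.96 to 4.31 FPKM.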

How the results depend on the processing

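Against Control, 655 genes changed. Other settings gave 321 without the filter on low values (31149 genes tested), 395 with only the groups compared, 1154 at an adjusted p under 0.1 and 103 with a log2 change of at least 1 as well, and 383 to 706 when 1 library was left out. The remaining settings gave 548 to 698. Quantile normalization gave 56.6% of calls higher and rescaling to equal sums 40.5%, against 49.9%. Against ABL503, 151 genes differed, and 67 without the filter, 301 with array weights, 88 without the intensity trend, 314 at an adjusted p under 0.1, 37 with a log2 change of at least 1, and 54 to 218 without 1 library. The share higher was 42.5% after quantile normalization, 21.9% after rescaling and 20.9% without the filter, against 32.5%. The causes were not tested.

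Of 133 called named genes, 84 passed without each of the 10 libraries in turn and 0 changed direction in any setting. Calls were lost by 56 without the filter on low values, 35 with only the groups compared, 21 with the other-cell marker covariate, 9 with quantile normalization, 8 without the intensity trend, 5 after rescaling, 4 with array weights and 3 with a pseudocount of 0.1. Directions turned for 4 uncalled genes. The log2 change of Cd3e was 0.021 with the covariate and -0.104 to 0.097 over fits without 1 library. That of Eomes was -0.016 after rescaling and -0.111 to 0.123 without 1 library. With array weights Mki67 gave -0.014 and Pdcd1 -0.010, and without 1 library -0.035 to 0.181 and -0.064 to 0.366.

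Shared replicate numbers do not mark a shared animal in the labels, and same-numbered libraries did not deviate together (correlations -0.027 to 0.027 over 5 pairs, and 0 of 5 Control libraries correlated best with its own number). With the replicate number as a block, 617 genes changed against Control and 120 against ABL503, and 6 named genes lost their call. Read depth is unknown, so how far low values can be trusted cannot be judged from counts.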

Other observations

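A block of testis-type genes of the SPEER family on chr5:10241746-11922804 (RefSeq, GRCm38.p6) was higher after pembrolizumab. The stretch was chosen after its values were seen. It has 37 symbols, of which 14 were tested and all 14 rose, with log2 changes of 1.07 to 1.43 and limma adjusted p of 0.00114 to 0.0236. Their summed level ran from 20.6 to 64.4 FPKM in Control (median 61.1) and from 102 to 189 FPKM after pembrolizumab (median 156), without overlap. The copies resemble each other and reads may be shared between them, so the 14 may not be separate observations.

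By kind of gene, 5.93% of 9281 tested protein-coding genes passed, 5.62% of 890 pseudogenes, 8.74% of 103 transcribed pseudogenes and 4.08% of 612 long noncoding RNAs. The share was 3.17% of 126 small nucleolar RNAs, 1.48% of 135 receptor V segments and 1.04% of 96 miRNAs. Differences between kinds were not tested. The leading T-cell receptor beta V segment took 17.7% to 36.1% of the summed beta V level in Control libraries and 23.3% to 44.2% after pembrolizumab, and it was not the same segment in all libraries of either group.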
